A study of Mus musculus with 36 samples.

Results

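The genes described here are the MYC targets that are not also E2F targets, so that the machinery of growth can be followed apart from most of the machinery of division. The hallmark table deposited with the series lists 180 genes in MYC targets V1, of which 34 are also E2F targets. The other 146 were all found in the deposited expression table. After removal of 7 ribosomal protein genes and of 1 glycolytic gene (Pgk1), 138 genes of the 21650 in the table remained. No expression value entered this choice, although it was made with earlier results of these data known. By function they were divided into 17 translation factors, 6 genes of tRNA charging and export, 12 of ribosome biogenesis, 30 of splicing and mRNA processing, 13 chaperones, 14 proteasome subunits, 5 genes of the ubiquitin and SUMO pathway, 16 mitochondrial proteins, 8 enzymes of nucleotide and polyamine metabolism (with the glyoxalase Glo1), 1 nuclear import factor (Kpnb1), 13 genes of the cell cycle, DNA and chromatin, and 3 of signalling and vesicles. Each gene was placed in a single class, with Apex1, C1qbp and Ifrd1 under ribosome biogenesis. The Myc gene belongs to the E2F set and is therefore treated beside the list and not in it.

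MYC is a transcription factor that pairs with MAX, binds E-box DNA and raises the output of genes for making RNA and protein: translation factors, ribosome assembly factors, the spliceosome, chaperones, the proteasome and the enzymes of nucleotide and polyamine synthesis. Many genes of the cell cycle are shared between its target sets and those of the E2F factors, which act at the start of DNA synthesis. In mammary tissue MYC is known for its part in alveolar growth during pregnancy and as an oncogene amplified or overexpressed in many breast carcinomas.

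The samples were 36 bulk RNA libraries of mouse mammary tissue in 12 groups of 3. 4T1 cells, a luciferase-expressing carcinoma line of BALB/c origin, were injected into the mammary duct of BALB/c females after their pups had been weaned, and Py230 cells, a line from an MMTV-PyMT tumor, into that of C57BL/6 females in the same state, each in Matrigel, with Matrigel alone as the control in each strain. Tissue was taken at 1, 3 and 6 weeks post-inoculation (w p.i.), when a library holds tumor cells together with the stroma, fat, leukocytes and epithelium of a host gland that was no longer nursed. Albino C57BL/6 hosts (NF-κB luc/Tyr-/-), with an NF-κB luciferase reporter, were also used in the study, and the labels do not say whether any C57BL/6 library came from them. Each tumor model is a single cell line, and fewer 4T1 than Py230 cells were injected. Line, host strain and number of cells changed together between the models, so that their parts cannot be told apart. The labels do not say whether the libraries of a group came from separate animals, and the p-values measure the spread between these libraries.

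The deposited values are scores, centred on 0 and scaled to unit SD across the genes of a library, so that a score gives the place of a gene relative to all others and not an amount of RNA. Depth could not be read from them. Among genes whose mean normalized count, taken from the authors' table, was 100 or more, 1 score unit corresponded to about 2.94 log2 units. The members were well expressed, with mean normalized counts from 60.9 to 25329 and a median of 1085, and 136 of 138 lay at or above 100 compared with 62.7% of all genes. Differences below are given in score units ± SE and were tested with limma with adjustment over all 21650 genes. In bulk samples, fewer cells of a type and less RNA per cell cannot be told apart.

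The make-up of the tissue changed with time and has to be read beside every value. The mean score of 10 adipocyte markers ranged from 1.69 to 2.24 in the 18 Matrigel glands, from -0.076 to 0.18 in 4T1 tumors at 6 w p.i. and from 0.12 to 1.09 in Py230 tumors at 6 w p.i. All 10 were lower than in the glands at that time in both models. All 10 proliferation markers were higher at 6 w p.i. in both. Epithelial markers were present in every library, with means of 1.00 to 1.64. At 6 w p.i. the 7 milk protein markers ranged from -0.88 to -0.84 in 4T1 tumors against 0.76 to 0.81 in their glands, where 5 of 7 fell, and from -0.074 to 0.15 in Py230 tumors against 0.48 to 0.63, where 1 rose and 3 fell. The 12 leukocyte markers ranged from 0.48 to 0.50 in 4T1 tumors against -0.28 to -0.036, where 7 rose, and from 0.14 to 0.25 in Py230 tumors against -0.020 to 0.094, where 2 rose and 1 fell. The part of these shifts in the results below was not tested.

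The E-box CACGTG is the sequence to which MYC and MAX bind most tightly, and its presence at the start sites was read from RefSeq promoters (GRCm38.p6, 250 bases before to 50 after each start site). Of the 138 members, 120 were matched by symbol, and 18 of them (15%) had the motif, compared with 8.09% of 27025 genes with a promoter. Counted by promoter and not by gene, it was in 14% of 136 promoters of members and 7.15% of all 32851. The motif is its own reverse complement, so that both strands were searched at once. The members with it were spread over 9 classes. A set of 4 of them, from the translation, tRNA export, splicing and nucleotide classes, are shown, chosen because no annotated UTR lies in the 250 bases before their start site. Eif4a1 is the helicase of the cap complex, Xpot carries tRNA out of the nucleus, Snrpa is a protein of the U1 snRNP and Tyms makes thymidylate. Xpot and Snrpa are named here after their values were seen. The 250 bases are given 5′ to 3′ on the strand of the gene, with the motif in capitals. All lie on the minus strand, at chr11:69672424-69672673 for Eif4a1, chr10:121626333-121626582 for Xpot, chr7:27196272-27196521 for Snrpa and chr5:30073626-30073875 for Tyms.
Eif4a1: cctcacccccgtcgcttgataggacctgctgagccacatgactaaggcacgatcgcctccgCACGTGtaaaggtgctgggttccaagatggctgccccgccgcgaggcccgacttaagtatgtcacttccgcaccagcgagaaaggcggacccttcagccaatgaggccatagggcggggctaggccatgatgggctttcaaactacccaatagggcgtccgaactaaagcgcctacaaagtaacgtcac
Xpot: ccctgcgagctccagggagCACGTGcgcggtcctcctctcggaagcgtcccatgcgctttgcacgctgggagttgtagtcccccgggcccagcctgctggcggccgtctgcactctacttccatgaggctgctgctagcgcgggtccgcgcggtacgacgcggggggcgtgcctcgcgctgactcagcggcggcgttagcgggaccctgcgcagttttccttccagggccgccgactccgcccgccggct
Snrpa: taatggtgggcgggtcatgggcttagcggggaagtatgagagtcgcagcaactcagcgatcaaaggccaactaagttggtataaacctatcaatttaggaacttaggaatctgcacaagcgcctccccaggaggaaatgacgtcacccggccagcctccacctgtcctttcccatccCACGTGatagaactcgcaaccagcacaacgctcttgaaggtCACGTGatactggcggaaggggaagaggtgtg
Tyms: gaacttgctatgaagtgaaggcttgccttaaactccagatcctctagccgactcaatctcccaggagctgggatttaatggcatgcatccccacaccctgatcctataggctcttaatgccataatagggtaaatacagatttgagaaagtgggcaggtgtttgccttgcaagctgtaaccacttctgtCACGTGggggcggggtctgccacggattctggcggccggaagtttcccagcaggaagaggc
The motif begins at -189 from the start site in Eif4a1, -231 in Xpot, -73 for the first of 2 copies in Snrpa, and -61 in Tyms.

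The median score of the 138 genes kept between 0.885 and 0.979 in the 18 glands and was highest in tumors at 6 w p.i. It was 1.109, 1.114 and 1.113 in the 4T1 tumors at 6 w p.i., with a mean of 1.112 ± 0.0023 (SD, n = 3), against a group mean of 0.941 in the BALB/c glands of that time. In Py230 tumors at 6 w p.i. it was 1.134, 1.132 and 1.078, with a mean of 1.115 ± 0.032 (SD, n = 3), against 0.896 in the C57BL/6 glands. Neither tumor overlapped its glands. At 1 w p.i. the group means were 0.984 in 4T1 and 0.942 in Py230 tumors, beside 0.962 and 0.924 in the glands. At 3 w p.i. the models parted: the 4T1 tumors stood at 0.956 ± 0.0038, no higher than at 1 w p.i., while the Py230 tumors stood at 1.107, 1.049 and 0.972. In the same 3 Py230 libraries the adipocyte markers rose in the opposite order, with means of 0.51, 1.74 and 1.99, as did the skeletal muscle markers with -0.76, 0.58 and 2.18, while the proliferation markers stood at 0.87, 0.64 and 0.26.

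**Figure D1:**
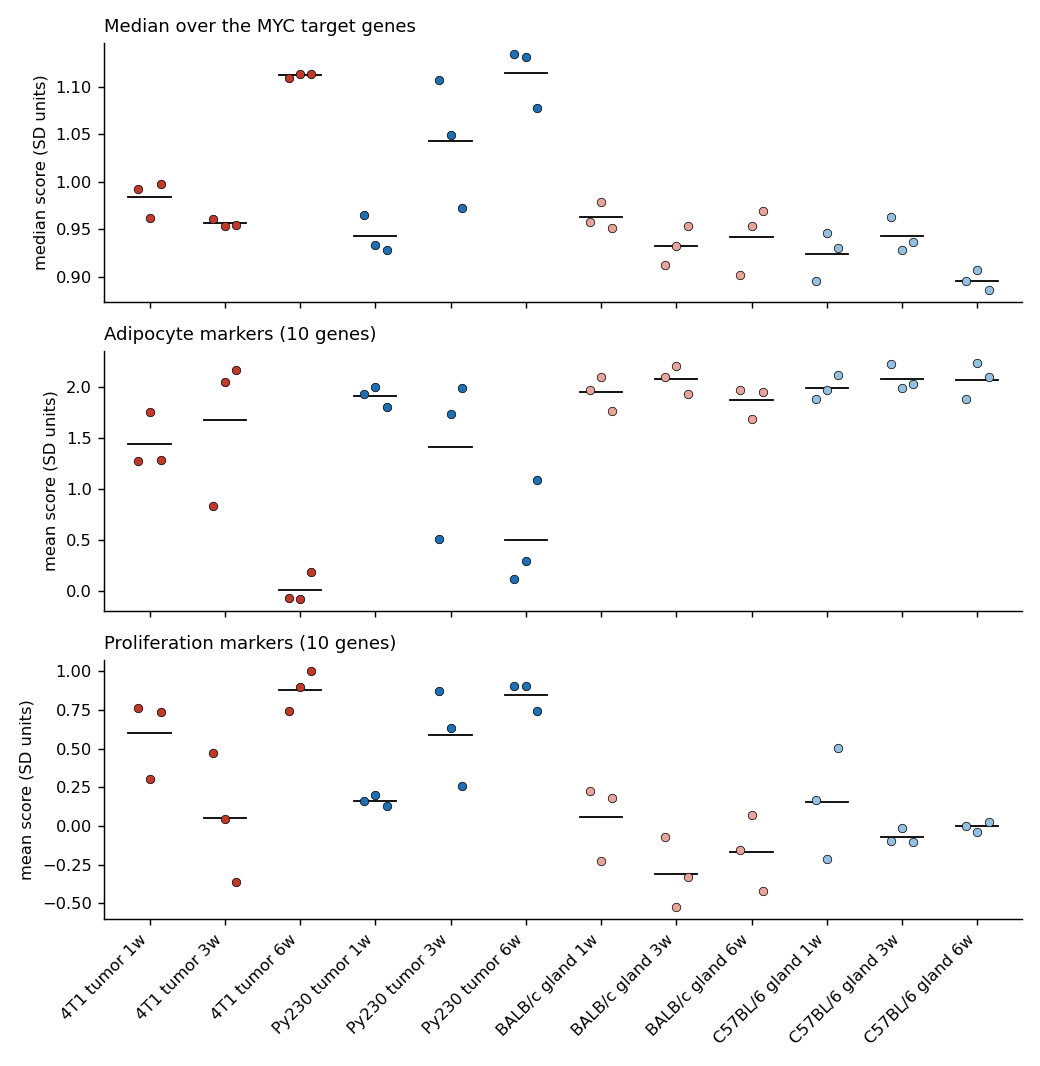
Each point is 1 library and each bar the mean of 3, for the median score of the 138 MYC target genes (top), the mean score of 10 adipocyte markers (middle) and of 10 proliferation markers (bottom), in SD units of the library, over the 12 groups (w, weeks post-inoculation). The 4T1 and Py230 tumors at 6 w p.i. have the highest MYC target medians, with means of 1.112 and 1.115, and the lowest adipocyte means, and the 3 Py230 libraries at 3 w p.i. are spread from 0.972 to 1.107.

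At 6 w p.i. most of the MYC targets were raised over the glands in both models. In 4T1 tumors 112 of 138 were higher and 4 lower at an adjusted p under 0.05, where 38.6% of all genes were higher and 21.5% lower. The median difference of the members was 0.215, compared with 0.065 over all genes. In Py230 tumors 110 were higher and 2 lower, against 28.8% and 18.7% of all genes, with a median of 0.204 beside 0.034. The members were better expressed than most genes, as given above, and the shares of all genes are not matched for level. The values of tumors and glands did not overlap for 112 members that were higher in 4T1 (41.5% of all genes) and for 117 that were higher in Py230 (37.8%). These 2 comparisons share no library, but they share the estimate of the spread of each gene, made from all 36 libraries. The same 104 genes rose in both, which is 92.9% of those raised in 4T1 and 94.5% of those raised in Py230 tumors. Another 8 rose in 4T1 alone, 6 in Py230 alone and 20 in neither. With most members raised in each model, a large overlap follows from the 2 counts alone. The overlap over all genes was not counted.

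**Figure D2:**
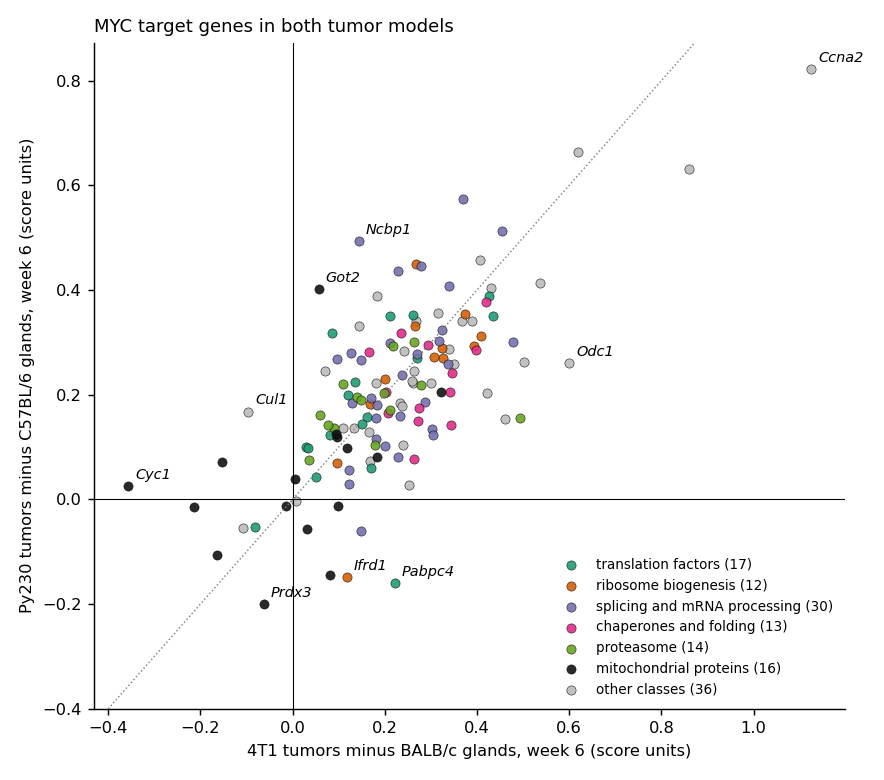
Each point is 1 of the 138 MYC target genes, placed by its difference from BALB/c glands in 4T1 tumors (x axis, score units) and from C57BL/6 glands in Py230 tumors (y axis, score units) at 6 w p.i. Most points lie in the upper right, where 104 genes passed the test in both models.

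Of the 17 genes counted as translation factors, 13 rose in 4T1 and 12 in Py230 tumors at 6 w p.i., with median differences of 0.15 and 0.16. Eif4e, which binds the mRNA cap and limits initiation, lies at chr3:138526179-138559696 in the mm10 build. Its scores were 1.03, 1.09 and 1.10 in 4T1 tumors and 0.81, 0.89 and 0.88 in their glands, and 1.13, 1.11 and 1.03 in Py230 tumors and 0.75, 0.76 and 0.72 in theirs. No tumor overlapped its glands, and the differences were 0.21 ± 0.043 (limma adjusted p = 0.000181) and 0.35 ± 0.043 (adjusted p = 6.94e-07). The helicase Eif4a1, its partner in the cap complex and with an E-box before its start site, gained 0.43 ± 0.049 and 0.39 ± 0.049. Abce1, which splits ribosomes after termination, reached 1.47, 1.57 and 1.55 in 4T1 tumors from 1.04, 1.11 and 1.13 in glands. Eif3b, a core of the initiation factor eIF3, rose by 0.26 ± 0.034 and 0.35 ± 0.034. Eif4g2, an abundant initiation factor of the scaffold family, did not pass the test in either model, with differences of 0.051 ± 0.024 and 0.043 ± 0.024. The cytoplasmic poly(A) binding protein gene Pabpc4 was raised in 4T1 tumors only, at 1.14, 1.05 and 1.01 against 0.74, 0.95 and 0.84, and lay at 0.53, 0.58 and 0.49 in Py230 tumors. The difference between the models for this gene, less that of their glands, was 0.38 ± 0.12 (adjusted p = 0.0174).

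All 6 genes of tRNA charging and export rose in both models at 6 w p.i. Kars, the lysyl-tRNA synthetase, had scores of 1.61, 1.58 and 1.55 in 4T1 tumors and 1.20, 1.25 and 1.23 in glands, a difference of 0.35 ± 0.039. In Py230 tumors Kars was raised by 0.26 ± 0.039. Ssb encodes the La protein, which protects new RNA polymerase III transcripts such as tRNA precursors, and it rose by 0.24 ± 0.038 and 0.28 ± 0.038. The changes of Eprs, the glutamyl-prolyl-tRNA synthetase, were smaller, at 0.13 ± 0.035 and 0.14 ± 0.035.

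Of the 12 genes counted with ribosome biogenesis, 11 rose in 4T1 tumors, and 10 rose and 1 fell in Py230 tumors. Their median differences of 0.29 and 0.28 were above those of the translation factors. The nucleolar helicase Ddx21, which works on rRNA transcription and processing, scored 1.38, 1.49 and 1.44 in 4T1 tumors against 1.10, 1.13 and 1.15 in glands, and 1.38, 1.41 and 1.28 in Py230 tumors against 1.09, 1.09 and 1.08. Both pairs of groups were apart, by 0.31 ± 0.033 and 0.27 ± 0.033. Gnl3 (nucleostemin), a nucleolar GTPase, gained 0.37 ± 0.047 and 0.36 ± 0.047, and Rsl1d1, a nucleolar protein with a ribosomal L1 domain, gained 0.32 ± 0.036 and 0.29 ± 0.036. Fbl, the methyltransferase fibrillarin, was the least expressed of these named genes and rose by 0.20 ± 0.064 and 0.23 ± 0.064. The member that fell in Py230 tumors was Ifrd1, a transcriptional co-regulator counted with this class. It scored 0.89, 0.83 and 0.89 against 1.00, 1.08 and 0.97 in glands, a difference of -0.15 ± 0.056 (limma adjusted p = 0.0307). The class also holds Apex1, an endonuclease of DNA repair, and C1qbp, found mainly in mitochondria, named here for these other roles. They rose by 0.41 and 0.31, and by 0.27 and 0.33, in 4T1 and Py230 tumors.

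The spliceosome and its partners formed the largest class, and 29 of 30 rose in 4T1 and 27 of 30 in Py230 tumors, with none lower and medians of 0.23 and 0.25. Sf3b3, a subunit of the SF3B complex that recognises the branch point, scored 1.70, 1.68 and 1.76 in 4T1 tumors and 1.20, 1.23 and 1.27 in glands, 0.48 ± 0.047 higher. In Py230 tumors the difference was 0.30 ± 0.047. The core Sm protein gene Snrpd1 scored 0.79, 0.80 and 0.71 in Py230 tumors against 0.20, 0.19 and 0.19, and 0.58, 0.55 and 0.63 in 4T1 tumors against 0.24, 0.19 and 0.24, and rose in both. Taken against the glands of each strain, the gap of -0.20 ± 0.09 between the models did not pass the test (adjusted p = 0.102). Among regulators of splice site choice, Srsf7 gained 0.24 ± 0.044 and 0.24 ± 0.044, Hnrnpa1 0.30 ± 0.05 and 0.12 ± 0.05, and the abundant Hnrnpa2b1 0.13 ± 0.035 and 0.18 ± 0.035. Rnps1, which marks spliced mRNA in the exon junction complex, rose by 0.30 ± 0.035 in 4T1 and 0.13 ± 0.035 in Py230 tumors. Ilf2, a double-stranded RNA binding partner, rose by 0.27 ± 0.035 and 0.28 ± 0.035. Ncbp1, the large subunit of the nuclear cap-binding complex, was also raised in both but not alike: it scored 0.87, 0.87 and 0.88 in 4T1 and 1.20, 1.23 and 1.10 in Py230 tumors, both above glands (0.74, 0.72 and 0.72, and 0.64, 0.73 and 0.68). The rise in Py230 exceeded that in 4T1 tumors by 0.35 (difference of differences -0.35 ± 0.055, limma adjusted p = 2.53e-05).

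All 13 chaperone genes rose in both models, by medians of 0.27 in 4T1 and 0.21 in Py230 tumors. The cytosolic chaperonin CCT folds actin and tubulin. Its subunit gene Cct3 (chr3:88297116-88321767) had the smallest p-value of the class over the 12 groups, with scores of 1.60, 1.62 and 1.57 in 4T1 tumors against 1.15, 1.15 and 1.23 in glands. The lowest tumor library lay above the highest gland, and the difference was 0.42 ± 0.034 (limma adjusted p = 1.57e-10). In Py230 tumors Cct3 scored 1.54, 1.48 and 1.48 against 1.12, 1.13 and 1.12, a rise of 0.38 ± 0.034. The other named subunits moved likewise, with rises of 0.34 ± 0.03 and 0.20 ± 0.03 for Cct2, 0.35 ± 0.033 and 0.24 ± 0.033 for Cct5 and 0.27 ± 0.024 and 0.15 ± 0.024 for Tcp1. The cytosolic chaperone gene Hsp90ab1, the most abundant member of all, rose by 0.21 ± 0.034 and 0.17 ± 0.034. Hspe1, the co-chaperonin of the mitochondrial matrix, gained 0.23 ± 0.046 and 0.32 ± 0.046, and Canx (calnexin), a lectin chaperone of the endoplasmic reticulum, gained 0.34 ± 0.041 and 0.14 ± 0.041.

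The proteasome degrades ubiquitin-tagged protein, and 12 of its 14 member genes rose in 4T1 and 13 in Py230 tumors. Their median differences of 0.16 and 0.18 were smaller than those of the chaperones. The core subunit gene Psma6 (chr12:55384222-55418454) stood apart in 4T1 tumors, at 1.73, 1.88 and 1.49 against 1.19, 1.21 and 1.22 in glands, with a wide spread among tumors. In Py230 tumors it scored 1.32, 1.32 and 1.34 against 1.14, 1.20 and 1.16. The rises were 0.49 ± 0.054 and 0.16 ± 0.054, and their difference of 0.34 ± 0.076 passed the test (limma adjusted p = 0.00162). The other named subunits changed by more similar amounts, 0.22 ± 0.042 and 0.29 ± 0.042 for Psma7, 0.26 ± 0.043 and 0.30 ± 0.043 for the deubiquitinase subunit Psmd14, and 0.20 ± 0.025 and 0.20 ± 0.025 for Psmd7. Psmb2 gained 0.18 ± 0.026 and 0.10 ± 0.026, and the ATPase Psmc4 gained 0.11 ± 0.028 and 0.22 ± 0.028. In the ubiquitin pathway, the shuttle factor Rad23b rose by 0.18 ± 0.037 in 4T1 and 0.39 ± 0.037 in Py230 tumors. Cul1, the scaffold of SCF ubiquitin ligases, went opposite ways: it fell in 4T1 tumors, to 1.21, 1.19 and 1.21 from 1.25, 1.27 and 1.37, and rose in Py230 tumors, to 1.47, 1.47 and 1.43 from 1.32, 1.27 and 1.27. This difference of -0.26 ± 0.045 passed the test (adjusted p = 6.68e-05).

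**Figure D3:**
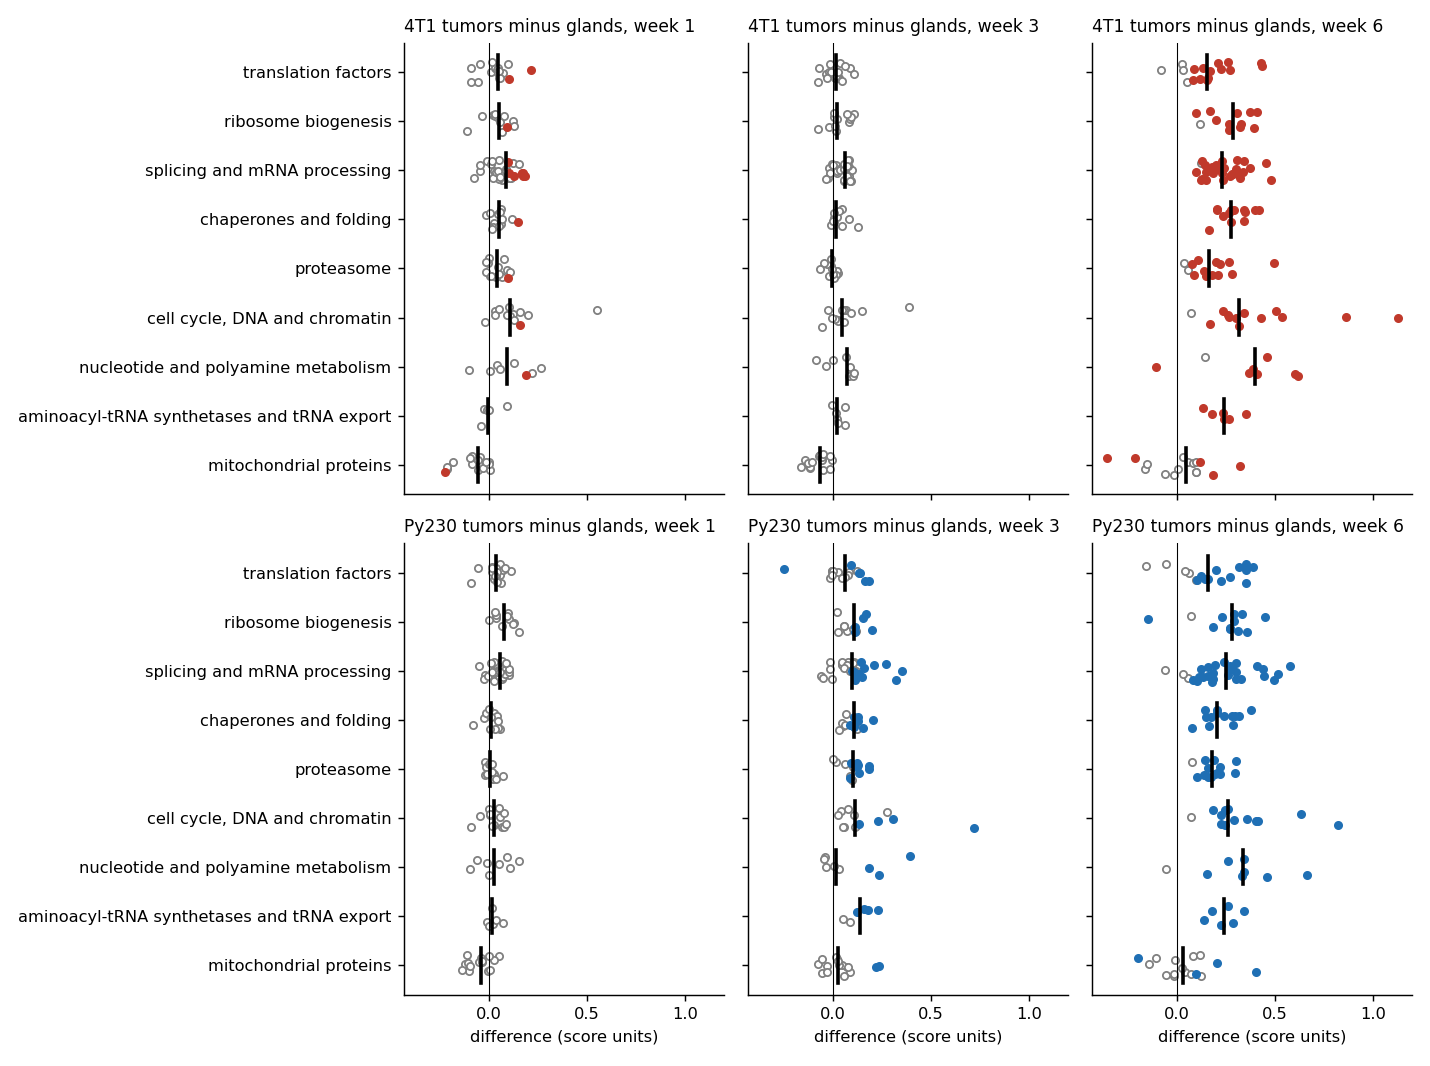
Each point is 1 MYC target gene, by functional class and week, as its difference between tumor and Matrigel glands of the same strain in score units (filled points passed the limma test at an adjusted p under 0.05, open points did not, black bars are class medians). The ubiquitin and SUMO, nuclear transport, and signalling and vesicle classes are not drawn. At 6 w p.i. the class medians of the mitochondrial proteins are 0.044 and 0.033, and those of the other classes drawn are higher. Of the classes not drawn, the 3 signalling and vesicle genes have a median of 0.028 in Py230 tumors. At 3 w p.i. no 4T1 point is filled, while 51 of all 138 members, drawn or not, were higher in Py230 tumors.

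The enzymes of nucleotide and polyamine synthesis had the largest median rise of any class with more than 1 member, 0.40 in 4T1 and 0.34 in Py230 tumors. Odc1, the rate-limiting enzyme of polyamine synthesis and a classical MYC target, scored 1.20, 1.21 and 1.01 in 4T1 tumors against 0.48, 0.59 and 0.56 in glands, and 0.89, 0.93 and 0.86 in Py230 tumors against 0.67, 0.60 and 0.63. The rise was 0.60 ± 0.049 in 4T1 and 0.26 ± 0.049 in Py230 tumors, and the difference between them was 0.34 ± 0.069 (limma adjusted p = 0.000599). Srm, which makes spermidine from the product of Odc1, gained 0.37 ± 0.049 and 0.34 ± 0.049. Impdh2, the enzyme at the branch to guanine nucleotides, separated the models, and it scored 0.61, 0.62 and 0.55 in 4T1 tumors at 6 w p.i., while every other library lay between -0.048 and 0.20. Cad, which starts pyrimidine synthesis, rose by 0.39 ± 0.056 and 0.34 ± 0.056, and Tyms, which makes thymidylate, by 0.62 ± 0.098 and 0.66 ± 0.098. Glo1 did not follow the class. It was lower in 4T1 tumors than in glands (difference -0.11 ± 0.047) and was higher in BALB/c than in C57BL/6 glands at every time, by 0.36 ± 0.047, 0.32 ± 0.047 and 0.38 ± 0.047 in weeks 1, 3 and 6.

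Kpnb1, the importin that carries proteins through the nuclear pore, rose by 0.42 ± 0.039 in 4T1 and 0.20 ± 0.039 in Py230 tumors. In the class of cell cycle, DNA and chromatin, 12 of 13 rose in each model. Ccna2 (cyclin A2) scored 0.93, 1.11 and 1.22 in 4T1 tumors against 0.0023, 0.26 and -0.37 in glands, and 1.06, 1.00 and 0.92 in Py230 tumors against 0.20, 0.18 and 0.14. Its rises of 1.12 ± 0.2 and 0.82 ± 0.2 were the largest of all members in both models. Cdc45, part of the replicative helicase, followed in 4T1 with 0.86 ± 0.11 and had 0.63 ± 0.11 in Py230 tumors. Smarcc1, a SWI/SNF subunit, gained 0.50 ± 0.05 and 0.26 ± 0.05, and Tfdp1, the DNA-binding partner of the E2F factors, gained 0.54 ± 0.057 and 0.41 ± 0.057. Of the 14-3-3 adaptor genes, Ywhae rose in both, by 0.26 ± 0.029 and 0.23 ± 0.029. Ywhaq rose by 0.25 ± 0.037 in 4T1 tumors, with 0.028 ± 0.037 in Py230 tumors, where it did not pass the test (adjusted p = 0.56).

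As a class, the members counted as mitochondrial proteins did not share the rise. Of 16 genes, 3 were higher and 2 lower in 4T1 tumors, and 3 were higher and 1 lower in Py230 tumors, with medians of 0.044 and 0.033. Outside this class, 109 of 122 members were higher in 4T1 and 107 of 122 in Py230 tumors. Among those higher in both were Hspe1 of the mitochondrial matrix, counted with the chaperones, and C1qbp, counted with ribosome biogenesis. Tufm, a mitochondrial protein counted with the translation factors and named here for that, passed the test in neither model (differences of 0.033 and 0.098). Cyc1, the cytochrome c1 subunit of respiratory complex III, was the lowest of all members relative to glands in 4T1 tumors, at 0.96, 0.97 and 0.99 against 1.30, 1.40 and 1.28, a fall of 0.36 score units (difference -0.36 ± 0.12, limma adjusted p = 0.0113). In Py230 tumors its difference was 0.026 ± 0.12 (adjusted p = 0.881). Stard7, a lipid carrier of mitochondria, also fell in 4T1 tumors (difference -0.21 ± 0.061), and the peroxidase Prdx3 fell in Py230 tumors (difference -0.20 ± 0.078). The raised genes included Got2, the mitochondrial aspartate aminotransferase, which scored 1.29, 1.33 and 1.23 in Py230 tumors against 0.89, 0.87 and 0.88 in glands. Hddc2, an HD-domain protein counted with this class, rose by 0.32 ± 0.055 and 0.21 ± 0.055. Named here only because the counts are small, and after their values were seen, Phb2 rose in both models and Mrps18b in 4T1 tumors.

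Skeletal muscle, which lies beneath the gland and is rich in mitochondria, was read beside this class. In the BALB/c glands at 1 w p.i. the mitochondrial median was 0.79, 1.06 and 0.72 beside mean muscle marker scores of 1.61, 2.56 and -0.36. In the C57BL/6 glands of that time it was 0.72, 1.03 and 0.76 beside 1.53, 2.76 and -0.68. All 10 muscle markers were lower in 4T1 tumors than in glands at 6 w p.i. and 0 passed the test in Py230 tumors, where their mean was -0.70, 1.25 and 1.05. The 2 values did not move together everywhere: in the C57BL/6 glands at 3 w p.i. the mitochondrial median was 0.795, 0.786 and 0.739 beside 1.38, 2.20 and 2.01, and in the 4T1 tumors at 6 w p.i. it was 0.893, 0.880 and 0.855 beside -0.33, -0.62 and 0.16. The part of muscle in the mitochondrial values was not tested.

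**Figure D4:**
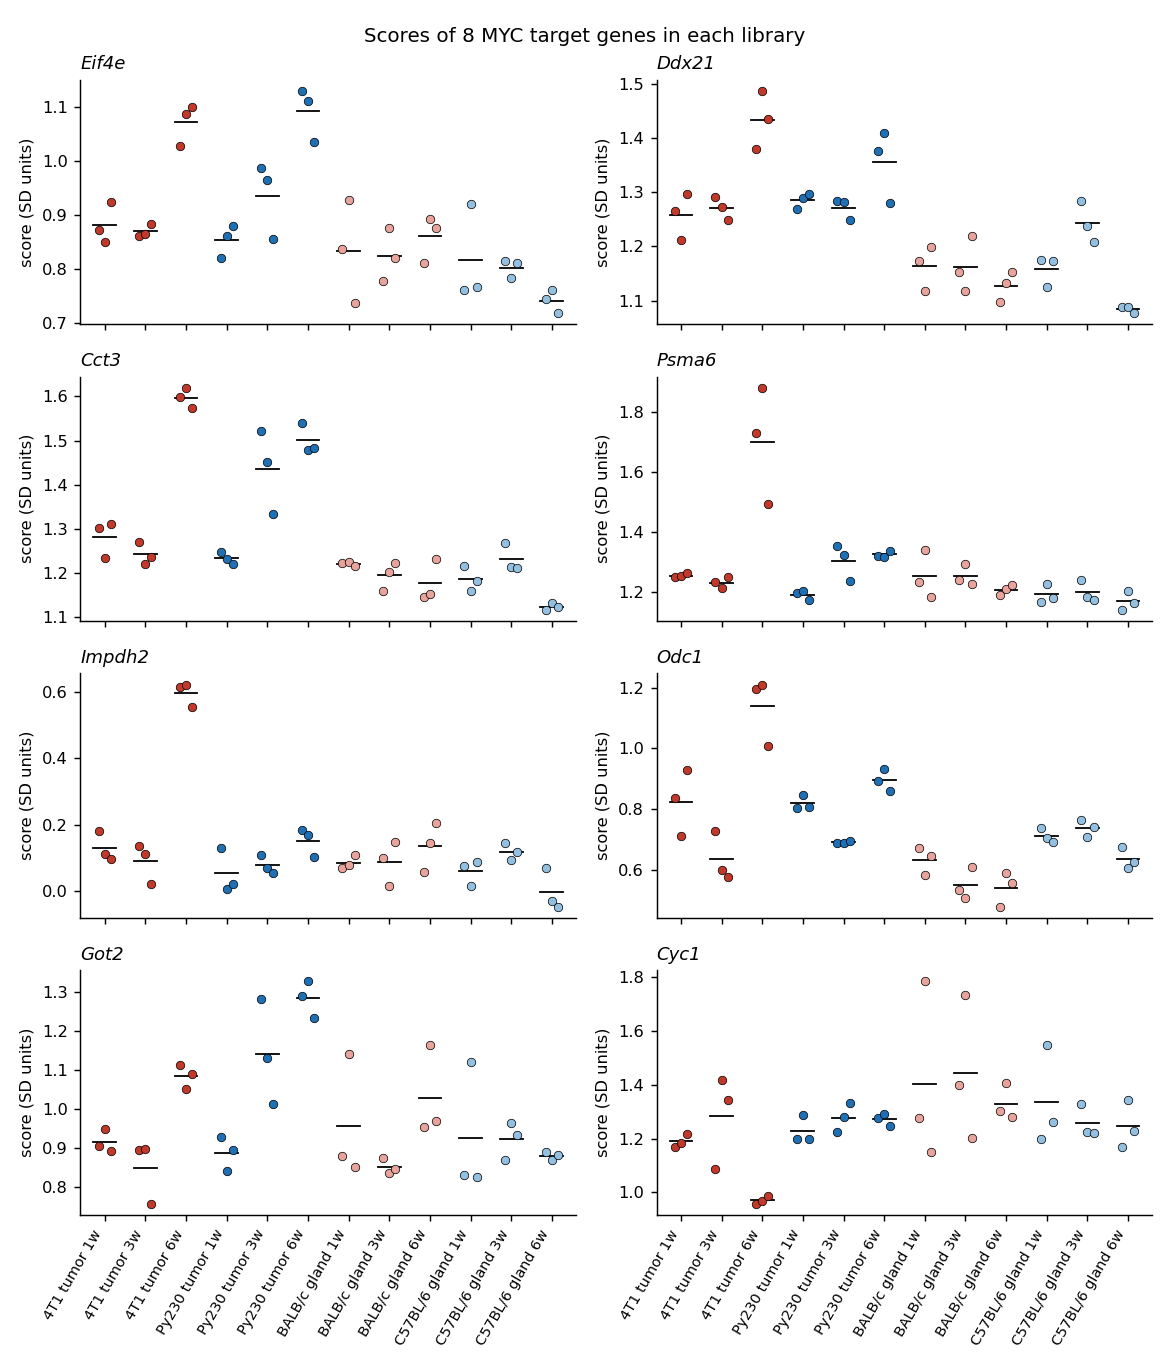
Scores of Eif4e, Ddx21, Cct3, Psma6, Impdh2, Odc1, Got2 and Cyc1 in each of the 36 libraries (points, SD units of the library) with group means (bars), over the 12 groups. Eif4e, Ddx21 and Cct3 are raised in both tumors at 6 w p.i., Psma6 and Impdh2 stand apart in 4T1 tumors, Got2 is highest in Py230 tumors, and Cyc1 is lowest in 4T1 tumors at 6 w p.i.

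The E-box set was then split by its values. Of the 18 members with the motif, 16 rose in 4T1 and 15 in Py230 tumors at 6 w p.i., with medians of 0.21 and 0.25. Of the 102 matched members without it, 82 and 81 rose, with medians of 0.23 and 0.21. Of the genes whose promoters were shown, Xpot rose by 0.24 ± 0.028 in 4T1 and 0.18 ± 0.028 in Py230 tumors, and Snrpa by 0.21 ± 0.044 and 0.30 ± 0.044. A match of these letters is a description of the sequence and not a site of binding.

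At 1 w p.i. few members were called. In 4T1 tumors 15 were higher and 1 lower than in glands, against 9.91% and 6.72% of all genes. The share of members, 10.9% higher, was near the background and that of 0.725% lower was below it, and the median was 0.048 beside -0.0068 over all genes. The unadjusted p was under 0.05 for 50, of which 45 were higher and 5 lower. The named genes among them included Eif4a1, at 1.33, 1.22 and 1.30 against 1.13, 0.96 and 1.13 (difference 0.21 ± 0.049), Odc1 with 0.19 ± 0.049 and Snrpb2, a U2 snRNP protein, with 0.18 ± 0.045. The one that was lower was Phb (prohibitin), with -0.22 ± 0.071. The count of 16 rested on single libraries: it was 0 without 4T1 replicate 1 or 3 or BALB/c replicate 2, and 39 without 4T1 replicate 2. It was 0 too with only these 6 libraries in the fit. In Py230 tumors 0 of 138 members passed the test by limma at 1 w p.i., where 0.00924% of all genes did, and 17 had an unadjusted p under 0.05, all of them higher.

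At 3 w p.i. a rise over the glands was called in many members in Py230 tumors. There 51 were higher and 1 lower than in glands, against 12.8% and 6.9% of all genes, with a median of 0.088 beside 0.018. They included 11 of 30 splicing genes, 8 of 14 proteasome genes, 7 of 13 chaperones, 5 of 12 ribosome biogenesis genes and 4 of 6 genes of tRNA charging and export. Ccna2 showed the largest rise, with scores of 1.05, 0.83 and 0.42 against -0.013, 0.10 and 0.058 in glands (0.72 ± 0.2, limma adjusted p = 0.0118), followed by Tyms (0.39 ± 0.098) and Snrpd1 (0.35 ± 0.064). Cct3 scored 1.52, 1.45 and 1.33 against 1.27, 1.21 and 1.21, and Kars 1.48, 1.39 and 1.23 against 1.20, 1.18 and 1.19. In each of these genes replicate 1 was the highest and replicate 3 the lowest of the Py230 libraries, the reverse of the order of their adipocyte and muscle values and the same as that of their proliferation values given above. The gene that fell was Pabpc4, with -0.25 ± 0.083. Without replicate 1 the count of 52 became 12, without replicate 2 it was 30 and without replicate 3 it was 75. Without C57BL/6 gland replicate 2 or 3 it was 27, and with only these 6 libraries in the fit it was 0.

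In 4T1 tumors 0 of 138 members passed the test at 3 w p.i. by limma, where 3.25% of all genes did. The unadjusted p was under 0.05 for 11, of which 9 were higher and 2 lower, and 1 member passed after cyclic loess scaling and 2 without 4T1 replicate 3. Cct3, for example, scored 1.27, 1.22 and 1.24 against 1.16, 1.20 and 1.22 in glands, and Odc1 0.73, 0.60 and 0.58 against 0.53, 0.51 and 0.61. The adipocyte means of these tumors were spread from 0.83 to 2.17.

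Within the 4T1 model the called rises lay between 3 and 6 w p.i. From 3 to 6 w p.i. 113 members rose and 3 fell, against 34.2% and 18.8% of all genes, with a median change of 0.190. Ccna2 rose by 0.91 ± 0.2, Cdc45 by 0.61 ± 0.11 and Odc1 by 0.51 ± 0.049, the last from 0.73, 0.60 and 0.58 to 1.20, 1.21 and 1.01. The genes that fell were Cyc1 (-0.31 ± 0.12), Ndufab1, an accessory subunit of complex I (-0.22 ± 0.089), and Cul1 (-0.076 ± 0.032). From 1 to 3 w p.i. 0 of 138 passed the test by limma, where 0.628% of all genes did. The unadjusted p was under 0.05 for 27, all lower. After cyclic loess scaling 1 passed, and 23 and 4 passed without replicate 1 of 3 w p.i. and replicate 2 of 1 w p.i.

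Within the Py230 model the rise came earlier. From 1 to 3 w p.i. 51 members rose and 0 fell, against 12.8% and 7.17% of all genes, with a median of 0.079. Tyms gained 0.43 ± 0.098, Txnl4a, a protein of the U5 snRNP, gained 0.35 ± 0.05 and Cdc45 gained 0.33 ± 0.11. This count was 9 without Py230 replicate 1 of 3 w p.i., 32 without replicate 2, 78 without replicate 3, 28 without replicate 3 of 1 w p.i., and 0 with only these 6 libraries in the fit. From 3 to 6 w p.i. 10 rose and 1 fell, against 3.96% and 2.06% of all genes, with a median of 0.060. Snrpb2 rose by 0.30 ± 0.045, from 0.75, 0.67 and 0.53 to 0.95, 1.03 and 0.85, Odc1 by 0.21 ± 0.049 and Cad by 0.20 ± 0.056, while Ifrd1 fell (-0.19 ± 0.056). That count was 47, 3 and 2 without replicates 1, 2 and 3 of 3 w p.i., 2 and 1 without replicates 1 and 2 of 6 w p.i., and 0 with only these 6 libraries in the fit.

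In the direct comparison of the tumors the median of the members changed sign with time. At 1 w p.i. 16 members were higher and 1 lower in 4T1 than in Py230 tumors, against 11% and 8.43% of all genes. The share of members that was higher was thus near the background, and the share that was lower was below it. The higher members named were Tyms, at 0.31, 0.032 and 0.28 against -0.10, -0.16 and -0.21 (0.36 ± 0.098), Glo1 (0.31 ± 0.047) and Cdc45 (0.31 ± 0.11). Rnps1 was the lower gene (-0.14 ± 0.035). Between the glands of the strains Glo1 differed by 0.36 and Rnps1 by -0.12 at this time. With the difference between the glands subtracted, the values were 0.36 for Tyms, -0.042 for Glo1, 0.29 for Cdc45 and -0.025 for Rnps1, and none passed the test. The count of 17 was between 4 and 32 when single libraries were left out, with 4 without 4T1 replicate 3, 5 without replicate 1, 32 without replicate 2, and 8 and 7 without Py230 replicates 2 and 3. With only these 6 libraries in the fit it was 4.

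At 3 w p.i. 1 member was higher and 53 were lower in 4T1 than in Py230 tumors, against 11.9% and 18.5% of all genes, with a median of -0.081 beside -0.011. The lower genes were 12 of splicing, 9 chaperones, 6 translation factors, 5 of ribosome biogenesis, 5 of tRNA charging and export, and 16 of the other classes. Ccna2 differed most, at 0.61, 0.14 and -0.22 in 4T1 and 1.05, 0.83 and 0.42 in Py230 tumors (-0.59 ± 0.2, limma adjusted p = 0.024), with overlap between the groups. Rfc4, a clamp loader subunit, differed without overlap, at -0.13, -0.18 and -0.20 against 0.36, 0.22 and -0.0094 (-0.36 ± 0.074). The difference in Tyms was -0.36 ± 0.098. The gene higher in 4T1 was Glo1 (0.28 ± 0.047). With the difference between the glands of the strains subtracted, Glo1 was at -0.047, Ccna2 at -0.33, Rfc4 at -0.31 and Tyms at -0.29, and none of these passed the test. Of the proliferation markers, 6 of 10 were lower in 4T1 tumors at this time. The count of 54 was 30 without Py230 replicate 1, 80 without Py230 replicate 3, and 0 with only these 6 libraries in the fit.

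At 6 w p.i. the balance of the direct comparison had turned, with 43 members higher and 15 lower in 4T1 than in Py230 tumors. Of all genes 24.1% were higher and 16.7% lower, and the median of 0.056 compares with 0.036 over all genes. With the difference between the glands subtracted, the median of the members was 0.0094 beside 0.032 over all genes. The split depended on the scaling, since quantile normalization gave 33 higher and 22 lower, and cyclic loess 32 and 21. The leading genes were Pabpc4, at 1.14, 1.05 and 1.01 against 0.53, 0.58 and 0.49 (0.53 ± 0.083), Impdh2, at 0.61, 0.62 and 0.55 against 0.18, 0.17 and 0.10 (0.45 ± 0.043), and Psma6 (0.37 ± 0.054). The lower genes were led by Ncbp1 (-0.31 ± 0.039), Cyc1 (-0.30 ± 0.12) and Cul1 (-0.26 ± 0.032). By class, 8 of 13 chaperones were higher and 0 lower, with Tcp1 at 0.15 ± 0.024, Cct2 at 0.18 ± 0.03 and Canx at 0.19 ± 0.041. Hsp90ab1 was among these 8 with 0.086 ± 0.034, but its difference was -0.029 after quantile normalization. Of the 30 splicing genes 8 were higher, among them Sf3b3 (0.21 ± 0.047) and Hnrnpa1 (0.20 ± 0.05). Another 5 were lower, among them Snrpb2 (-0.19 ± 0.045) and Snrpd1 (-0.18 ± 0.064). Both shares were near those of all genes. Of the 17 translation factors 4 were higher and 2 lower, neither share above that of all genes.

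The change of the difference between the models was tested as an interaction of the tumor groups, and the change of the glands over the same time was not subtracted. The median difference between the glands of the strains went from 0.024 at 1 w p.i. to -0.028 at 3 w p.i. and 0.031 at 6 w p.i. Its part in the changes below was not tested. Between 1 and 3 w p.i. 50 members moved in the direction of Py230 and 0 in that of 4T1, against 10.4% and 4.89% of all genes, with a median of -0.121. Ccna2 changed by -1.08 ± 0.28, Tyms by -0.72 ± 0.14 and Rfc4 by -0.54 ± 0.1. This count was 18 without Py230 replicate 1 of 3 w p.i., 31 without 4T1 replicate 1 of 1 w p.i. or 4T1 replicate 3 of 3 w p.i., and 32 without Py230 replicate 3 of 1 w p.i., 4T1 replicate 2 of 3 w p.i. or Py230 replicate 2 of 3 w p.i. It was 0 when only the libraries compared were fitted. Between 3 and 6 w p.i. 58 moved back towards 4T1 and 1 further towards Py230, against 17.8% and 8.88% of all genes, with a median of 0.151. Psma6 changed by 0.45 ± 0.076, Impdh2 by 0.43 ± 0.061 and Hddc2 by 0.41 ± 0.077. The single gene that went the other way was Cul1, with -0.15 ± 0.045 (limma adjusted p = 0.0123). This count was 33 when only the libraries compared were fitted.

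**Figure D5:**
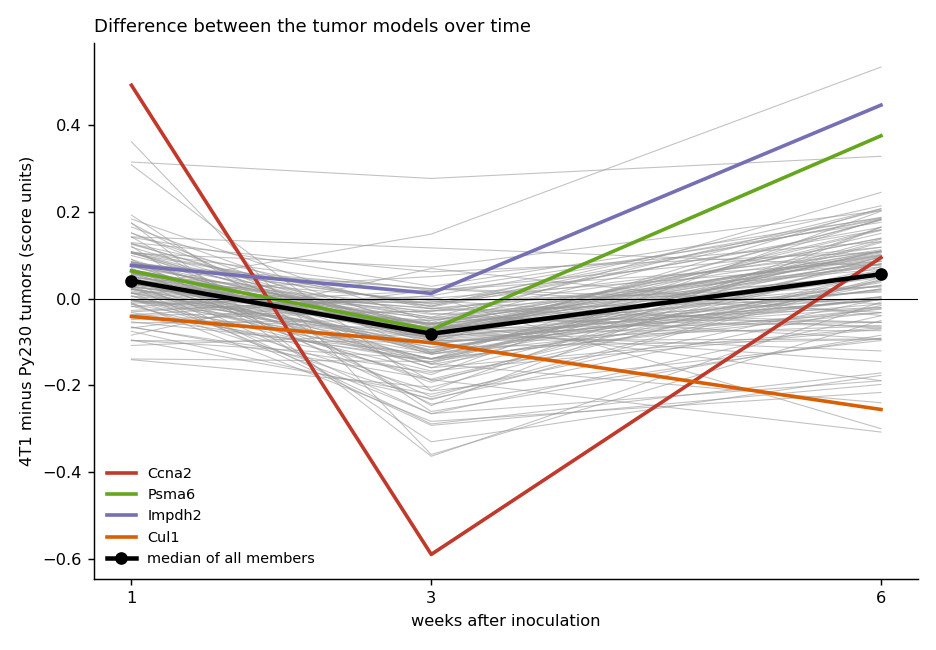
Grey lines are the differences of the 138 MYC target genes between 4T1 and Py230 tumors (y axis, score units, 4T1 minus Py230) at 1, 3 and 6 weeks after inoculation, the black line is their median and coloured lines are Ccna2, Psma6, Impdh2 and Cul1. The median is 0.041 at 1 w p.i., -0.081 at 3 w p.i. and 0.056 at 6 w p.i., and Cul1 alone of the coloured genes declines at each step. The difference between the glands of the strains is not subtracted.

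Few members were called between the Matrigel glands of the strains, although their median difference changed sign with time, at 0.024, -0.028 and 0.031. Called were 1 member at 1 w p.i. (3.06% of all genes), 5 at 3 w p.i. (3.77%) and 3 at 6 w p.i. (3.84%), with Glo1 among them each time. Beside Glo1 these were Rnps1, Odc1, Hnrnpa3 and Ywhaq, all lower in BALB/c, at 3 w p.i., and Ywhaq (lower) and Psmd7 (higher) at 6 w p.i. Without C57BL/6 replicate 2 the first count was 2, the second was 2 or 3 without BALB/c replicate 1 or 2 or C57BL/6 replicate 1 or 3, and the last was 7 and 1 without BALB/c replicates 1 and 2. When the difference between the glands was subtracted from that between the tumors, 0 of 138 members passed the test at 1 w p.i. by limma (0.305% of all genes, with 7 members at an unadjusted p under 0.05). At 3 w p.i. 0 were higher and 10 lower in 4T1, against 2.64% and 6.51% of all genes. They included Hddc2 (-0.38 ± 0.077), Txnl4a (-0.32 ± 0.071) and Snrpd1 (-0.30 ± 0.09). At 6 w p.i. 16 were higher and 10 lower, where 14.4% of all genes were higher and 11.1% lower, a share near the background in both directions. The median of the members was 0.0094 and that of all genes 0.032.

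The MYC gene and its network were read beside the targets. Myc, on chromosome 15, scored 1.34, 1.22 and 1.28 in 4T1 tumors at 6 w p.i. against 0.81, 0.84 and 1.07 in glands (0.37 ± 0.075, limma adjusted p = 0.000147). In Py230 tumors it scored 1.17, 1.19 and 1.08 against 0.90, 0.75 and 0.78 (0.34 ± 0.075, adjusted p = 0.000609). Tumors and glands did not overlap in either model. At 3 w p.i. it scored 1.02, 0.92 and 1.02 in 4T1 tumors, and the direct comparison of the tumors passed the test at no time. Of the 16 network genes, Myc included, 5 rose and 6 fell in 4T1 tumors at 6 w p.i., beside the 38.6% and 21.5% of all genes given above, so that the share that rose was not above the background. Beside Myc the rises were in the MAX partners Mxd3 (0.70), Mxd1 (0.39) and Mnt (0.22), which oppose MYC, and in Mlx (0.16). The falls were in Mlxipl (-1.04), the glucose-sensing factor ChREBP, Mycl (-0.73), Mxd4 (-0.30), Mlxip (-0.25), Usp28 (-0.25) and Mga (-0.16). In Py230 tumors 7 rose and 3 fell, where 28.8% and 18.7% of all genes did. With Myc these were Mxd3 (0.79), Mycn (0.31), Fbxw7 (0.22), a ubiquitin ligase subunit that targets MYC, Max (0.21), Mlx (0.15) and Mxd4 (0.14). The falls were in Mlxipl (-1.55), Mxi1 (-0.25) and Mga (-0.16). Between the tumors at 6 w p.i., where 24.1% of all genes were higher and 16.7% lower, 3 network genes were higher in 4T1 (Mnt, 0.38; Mxi1, 0.35; Mxd1, 0.27) and 5 lower. The largest of these differences was in Mycl, at -0.46, -0.59 and -0.42 in 4T1 and 0.30, 0.46 and 0.35 in Py230 tumors (-0.86), followed by Mxd4 (-0.46), Mycn (-0.30), Mlxip (-0.21) and Fbxw7 (-0.20).

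Related genes outside the list were counted in the same way at 6 w p.i., against the same 38.6% higher and 21.5% lower of all genes in 4T1 and 28.8% and 18.7% in Py230 tumors. Of 21 further nucleolar genes, 20 rose in 4T1 tumors, led by Rcl1 (0.37) and Utp20 (0.42), and 18 rose in Py230 tumors, led by Bop1 (0.37) and Noc4l (0.42), with 0 lower in either. Of 18 further subunits of the proteasome, 12 rose in 4T1 and 18 in Py230 tumors, among them Psmc2 (0.22 and 0.21). Of 12 further CCT and translation control genes, 5 rose and 1 fell in 4T1 tumors, and 5 rose and 4 fell in Py230 tumors, so that the rises in 4T1 were near the background. The rises were led by the CCT subunits Cct6a (0.35 and 0.29) and Cct8 (0.36 and 0.32). The fall common to both was Eif4ebp2 (-0.29 and -0.20), which holds Eif4e away from the initiation complex. Its paralog Eif4ebp1 did not fall in both. Tumor minus gland, Eif4ebp1 was higher in 4T1 than in Py230 by 0.49 ± 0.15 (limma adjusted p = 0.0183).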

How the data were processed

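The authors aligned stranded paired-end RNA-seq reads to mm10 with STAR, counted them per gene and normalized with DESeq2; versions are not given in the sources used here. The deposited expression values are score values, which from their mean and SD were standardized within each library before deposit, so counts and depth could not be used. The authors' mean normalized count served only as a level, and their deposited fold changes and p-values were not used. The count test that had been planned was replaced by limma 3.58.1 in R 4.3.3, with 12 group means over 36 libraries, a mean-variance trend, robust moderation and Benjamini-Hochberg adjustment over 21650 genes at 0.05. It was tested on simulated data with 200 changed genes. Symbols missing for 5384 genes came from the reference annotation. Members and lists were chosen with earlier results of these data known. Genes were named if they stood on a list fixed by role, had the 3 largest called differences in a direction, or the 2 smallest p-values of their class over the 12 groups; of network genes all called were named, of other lists at most 4. Alternatives were quantile and cyclic loess scaling, a level filter, no trend, only the libraries compared, a replicate block and leaving out each library.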

Additional observations from a re-analysis of the deposited data

Results flagged for a closer look

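The results in this section are differences between the 2 models under the same contrast that passed a test of the difference itself. The changes over time are those of the tumors, without the change of the glands subtracted. The change of the 4T1 minus Py230 difference from 1 to 3 w p.i. passed for 50 members (36.2%, against 15.3% of all genes), with -1.08 for Ccna2, -0.72 for Tyms and -0.54 for Rfc4. The change from 3 to 6 w p.i. passed for 59 (42.8%, against 26.7% of all genes), with 0.45 for Psma6, 0.43 for Impdh2, 0.41 for Hddc2 and -0.15 for Cul1. Tumor minus gland, the models differed at 3 w p.i. for 10 members (7.25%, against 9.15% of all genes, so below the background), with -0.38 for Hddc2, -0.32 for Txnl4a and -0.30 for Snrpd1. At 6 w p.i. they differed for 26 (18.8%, against 25.5% of all genes, also below it), with 0.38 for Pabpc4, 0.34 for Odc1 and 0.34 for Psma6 on the side of 4T1, and -0.35 for Ncbp1, -0.35 for Got2 and -0.26 for Cul1 on the side of Py230. Single samples were not screened for outliers, since every group holds 3.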

How the results depend on the processing

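The counts against glands at 6 w p.i. and from 3 to 6 w p.i. in 4T1 tumors kept within 1.5 times under every alternative run. With only the libraries compared in the fit, the count of called members became 4 at 1 w p.i. and 0 at 3 w p.i. for 4T1 against Py230, 0 for 4T1 against glands at 1 w p.i., 0 for Py230 against glands at 3 w p.i., 0 for both steps within Py230, 0 and 33 for the changes of the difference from 1 to 3 and from 3 to 6 w p.i., and 0, 3 and 1 between the strains' glands by week. The construction of that fit (fewer libraries) lowers its precision. With the gland difference subtracted the model counts were 0, 10 and 26. Cyclic loess scaling gave 1 for 4T1 against glands at 3 w p.i., 1 for 4T1 from 1 to 3 w p.i. and 2 between glands at 1 w p.i., and quantile normalization gave 2 there. Hsp90ab1 turned to -0.029 in 4T1 against Py230 tumors at 6 w p.i. under quantile normalization. The cause was not tested.

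Leaving out single libraries moved the counts for 4T1 against Py230 by week between 4 and 32, 30 and 80, and 39 and 50, for 4T1 against glands between 0 and 39, 0 and 2, and 108 and 116, and for Py230 against glands between 0 and 0, 12 and 75, and 104 and 111. Within 4T1 they moved between 0 and 23, then 104 and 115, and within Py230 between 9 and 78, then 1 and 47. The changes of the difference moved between 18 and 74 and between 41 and 83, and the strains between 1 and 2, 2 and 6, and 1 and 7. For the 75 named genes, 2460 of 2880 such values stayed on the same side of the threshold and none reversed. The libraries that moved a count by over 1.5 times are named beside it in the report.

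Libraries with the same replicate number deviated together (r above 0.1) in 16 of 48 pairs, and a library correlated best with its own number in 16 of 48, so the numbers were not taken as pairs. The exception was BALB/c against C57BL/6 glands at 1 w p.i., where all 3 pairs did (r of 0.41, 0.79 and 0.56) and each was its own best match. With the replicate block the counts were 18, 56 and 60 between the models, 18, 0 and 119 for 4T1 and 0, 58 and 113 for Py230 against glands, and 1, 5 and 3 between the glands of the strains, as without it, which changed no count by more than 1.5 times.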

Other observations

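The immunoproteasome and its activator PA28, which replace or cap the standard proteasome where interferon acts and are not members of the list, were read beside the proteasome genes. In 4T1 tumors 4 of 5 were higher than in glands at 1 w p.i., where 9.91% of all genes and 1 of the 14 proteasome members were. Psmb9 scored 1.17, 1.01 and 1.13 in 4T1 tumors against 0.65, 0.56 and 0.72 in glands (0.45 ± 0.1, limma adjusted p = 0.00767), and Psmb8 gained 0.40 ± 0.093. At 3 w p.i. 0 of 5 passed the test by limma in 4T1 tumors, with adjusted p from 0.0684 (Psmb9) to 0.278 (Psme1) and unadjusted p under 0.05 for 4. In Py230 tumors 0 of 5 passed at 1 or 3 w p.i. (unadjusted p under 0.05 for 0 and 2), and all 5 were raised in both models at 6 w p.i. The direct comparison of the tumors called 3 of 5 at 1 w p.i. and 0 at 3 and 6 w p.i., where 0 had an unadjusted p under 0.05. With the difference between the glands subtracted, 0 of 5 passed at 1 w p.i. by limma (adjusted p of 0.0616 for Psmb9 and 0.0798 for Psmb8, unadjusted p under 0.05 for 4). The leukocyte markers moved in the same libraries, with 7 of 12 higher than in glands in 4T1 tumors at 1 w p.i. (means of 0.26 to 0.48, against -0.25 to 0.092 in glands). Their part in the immunoproteasome values was not tested.

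Members that also belong to other hallmark sets of the deposited table were counted by set. Of 13 shared with mTORC1 signalling, 12 rose in each model at 6 w p.i., and 1 fell in Py230 tumors. Of 12 shared with the G2M checkpoint, 11 rose and 1 fell in 4T1 tumors, and 12 rose in Py230 tumors. Beside these, 77 and 73 of the 96 members in no other hallmark set rose in 4T1 and Py230 tumors. Over all genes 38.6% and 28.8% were higher. Of the 3 shared with adipogenesis, 0 rose and 1 fell in each model, not the same gene.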
